A study of Homo sapiens with 36 samples.

Results

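The genes described here are 42 ribosome biogenesis and nucleolar factors, measured in HCT116 cells, an established line from a human colorectal carcinoma, during and after treatment with 5-fluorouracil (5-FU). They were chosen by name, as well-known factors of rRNA synthesis, rRNA modification and subunit assembly, with earlier results of these data known. The deposited table lists 15891 genes, and 42 of the 42 asked for are among them. 5-FU is a pyrimidine analogue that cells incorporate into their nucleic acids and that blocks thymidylate synthesis. Per the labels, all cells were HCT116, seeded 48 h earlier, and received 10 µM 5-FU for 48 h. The D0 cells were collected just before the drug, D1 and D2 fall within the exposure, and D7, D14 and D16 come after it. Each collection gave cytoplasmic RNA, with nuclei and mitochondria pelleted away, and a heavy pool, which is the RNA of the sucrose gradient fractions whose mRNAs carry more than 3 ribosomes. With 3 libraries (A, B and C) for each day and fraction, there are 12 groups and 36 libraries. The labels give the letters as batches and do not say whether they were separate cultures, so p-values measure the spread between these libraries, which may be technical. No untreated culture of the later days was analysed here, so drug and time in culture cannot be told apart. The handling of the cultures from D14 to D16 is not given in the sources used here.

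Ribosomes are built in the nucleolus. RNA polymerase I transcribes the long precursor of the rRNAs, box C/D and box H/ACA small nucleolar ribonucleoproteins (snoRNPs) guide its methylation and pseudouridylation, and a large particle called the small subunit processome folds and cleaves the part that becomes the small subunit. Other factors, among them the PeBoW complex, mature the large subunit. The nucleolus depends on running rRNA synthesis, and the late steps of rRNA processing are a known site of action of 5-FU in cultured cells.

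Values are normalised counts, the gene read counts divided by a size factor for each library. Differences are changes in log2(value + 1) ± standard error, from 3 libraries per group (n = 3), and a gene is called higher or lower, or said to have risen or fallen, at an adjusted p under 0.05 over all genes tested. The added 1 makes the changes of weakly expressed genes look smaller than they were. Libraries held 41.0 to 103.6 megareads in the cytoplasm and 46.1 to 55.7 megareads in the heavy pool. Of 10 colon epithelial markers 6 were listed (EPCAM, CDH1, KRT8, KRT18, KRT19 and CDX2), while CDX1, VIL1, LGALS4 and CDH17 were not. Of 12 markers of other cells, only COL1A1 and HBA1 were listed, at 5.51 to 22.6 per megaread summed over both. Some markers moved: in the cytoplasm HBA1 (2.25 ± 0.36), COL1A1 (1.09 ± 0.24) and KRT18 (1.36 ± 0.23) were higher at D1 and KRT18 (1.94 ± 0.23) at D7, and in the heavy pool COL1A1 (-0.95 ± 0.15) and HBA1 (-1.92 ± 0.47) were lower at D7. Their part in the results was not tested. Values of single libraries are in the order A, B, C. In bulk samples fewer cells of a kind and less RNA per cell cannot be told apart.

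The hexamer CACGTG, known as the E-box and bound by basic helix-loop-helix factors, was counted in the RefSeq promoter windows (250 bases before to 50 after the start, build GRCh38.p14). It reads the same on both strands, and no other motif was searched. Of the 42 genes 34 had a window, and 12 of these 34 windows (35.3%) held the hexamer, against 10.1% of the 10730 windows of genes in the table and 7.43% of all 27305 windows. NOP58, RRP12, BOP1, RRP1B, RRS1, DDX18, NOLC1 and TCOF1 had no window. The 6 stretches of 30 bases shown come from the genes with the hexamer that had the largest heavy-pool falls at D2, without NOP2, whose hexamer lies too near the window's end. They are NAT10 at chr11:34105602-34105631 (plus strand), NOC3L at chr10:94362903-94362932 (minus), UTP20 at chr12:101280083-101280112 (plus), NOL6 at chr9:33473894-33473923 (minus), FBL at chr19:39846356-39846385 (minus) and PES1 at chr22:30591880-30591909 (minus). Each is written 5′ to 3′ on the gene's strand with the hexamer in capitals.
NAT10: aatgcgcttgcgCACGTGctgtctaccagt
NOC3L: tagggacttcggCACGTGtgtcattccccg
UTP20: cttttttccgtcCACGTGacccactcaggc
NOL6: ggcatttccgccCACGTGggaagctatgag
FBL: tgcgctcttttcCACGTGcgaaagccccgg
PES1: tccttggcagggCACGTGcgggaggaagtg
With the annotated start counted as base 0, the hexamer began at -15 in NAT10, -10 in UTP20, 6 in FBL, 13 in NOL6, 13 in PES1 and 19 in NOC3L, so all of these lie close to the start. The heavy-pool change at D2 had a median of -1.26 over the 12 genes with the hexamer (range -2.58 to 0.12) and of -0.96 over the 22 without it (range -2.47 to -0.17), and these ranges overlap almost fully. In the cytoplasm at D2 the order was the other way (-0.52 with and -0.74 without), and in the heavy pool at D14 the medians were -0.98 and -0.92. A match is a description of these letters and says nothing about binding.

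Before the drug, most of these mRNAs had higher normalised values in the heavy pool than in the cytoplasm. Such values compare the make-up of the libraries and not amounts of RNA. Per kb of exon, merged over all annotated transcripts, the highest heavy-pool levels at D0 were those of FBL (11982 ± 643, SD, n = 3) and NCL (11978 ± 1232). These do not differ beyond their spread, and NOLC1 followed at 8785 ± 918. The lowest were NOP2 (52.3 ± 5.50) and UTP20 (61.0 ± 10.8). The merged length was 2.173 kb for FBL and 6.929 kb for NCL, with coding sequences of 0.963 and 2.130 kb. This order thus depends on the annotation. The heavy pool exceeded the cytoplasm in 27 of the 42 genes and was lower in 1 (all genes: 26.7% higher and 19.1% lower), with a median difference of 0.75 against 0.14 over all genes. NOP2, which methylates large subunit rRNA, differed most (1.46 ± 0.46, adjusted p = 0.0115), from 87, 53 and 149 in the cytoplasm to 217, 252 and 267 in the heavy pool. POLR1B differed by 1.28 ± 0.16 and NOL6 by 1.12 ± 0.24. NHP2, a small core protein of box H/ACA particles, was the exception, at 15966, 14562 and 15301 in the cytoplasm and 7899, 8052 and 8580 in the heavy pool (-0.90 ± 0.17, adjusted p = 8.61e-05). None of the 3 box C/D core proteins was called (FBL 0.37 ± 0.17, NOP56 0.13 ± 0.18, NOP58 -0.42 ± 0.50). Over the 12399 protein-coding genes this difference goes with coding length (Pearson r = 0.504 across genes, which are not independent replicates); over the 42 genes r was 0.344, and the part of length in the result was not tested. Without each letter in turn, 20 of the 28 calls were kept. Fitting only the D0 groups gave 37 higher and 2 lower (all genes: 6132 higher and 4055 lower). Library weights gave 35 higher and 2 lower (all genes: 6294 higher and 4384 lower).

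The summed values of the 42 genes in the heavy pool were highest at D0, low at D2, between these at D7 and low again at D14 and D16. Their share of all heavy-pool values was 0.972% ± 0.0418 (SD, n = 3) at D0, 0.859% ± 0.0189 at D1 and 0.523% ± 0.0138 at D2. It then stood at 0.811% ± 0.0587 at D7, 0.604% ± 0.0165 at D14 and 0.546% ± 0.0261 at D16. The D0 libraries lay between 0.941% and 1.02% and overlapped no later group. In the cytoplasm the share was 0.641% ± 0.0212 at D0, 0.443% ± 0.0356 at D1, 0.338% ± 0.0567 at D2 and 0.447% ± 0.0885 at D7, and 0.513% ± 0.0525 and 0.503% ± 0.0476 at D14 and D16. Its D0 libraries (0.617% to 0.654%) also lay above every later one. An exact permutation test of 3 libraries against 3 cannot give a two-sided p below 0.1. A share also moves with the rest of the library. Ribosomal protein genes made up 5.89% to 6.31% of heavy-pool values at D0, 11.4% to 12.3% at D14 and 10.2% to 11.2% at D16. In the cytoplasm they made up 10.5% to 12.5% at D0, 11.6% to 17.5% at D2 and 14.8% to 22.8% at D7. Genes of the mitochondrial genome made up 5.05% to 6.79% of cytoplasmic values at D0, 8.36% to 13.6% at D2 and 3.57% to 9.29% at D7. In the heavy pool they made up 1.41% to 2.13% at D0 and 0.808% to 1.62% at D2. The part of both gene groups in the result was not tested.

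**Figure D1:**
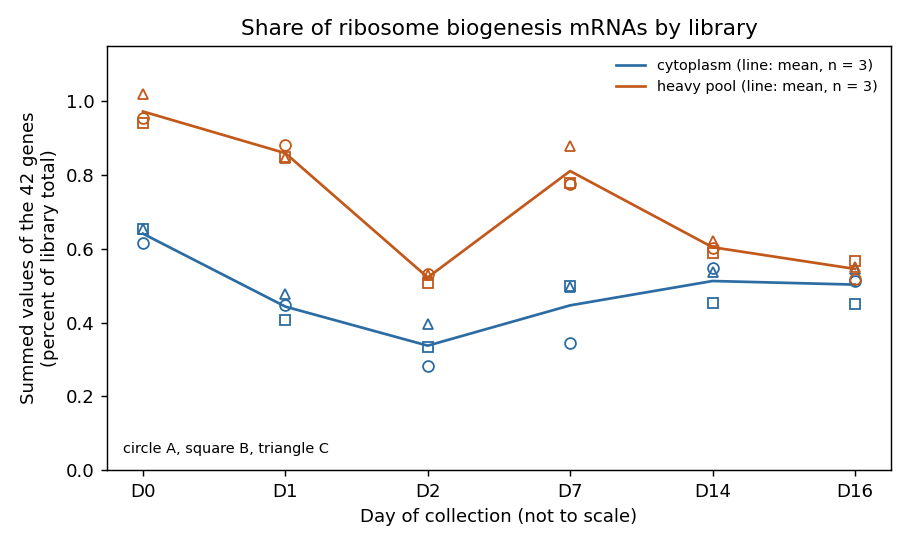
Summed values of the 42 genes as a percent of each library's total (y axis) by day of collection (x axis, not to scale). Points are single libraries (circle A, square B, triangle C) and lines join group means of 3. The heavy pool goes from 0.972% at D0 to 0.523% at D2, 0.811% at D7 and 0.546% at D16, and the cytoplasm is lowest at D2.

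In the heavy pool 25 of the 42 genes had fallen at D1 and 40 at D2, and none had risen on either day. Over all genes tested, 26.9% were lower and 20.1% higher at D1, and 34.5% lower and 30.4% higher at D2. The median change was -0.36 at D1 (-0.06 over all genes) and -1.16 at D2 (-0.03 over all genes). The 3 libraries of D2 lay below the 3 of D0 in 40 of the 42 genes, and in 38.3% of all genes. UBTF (-1.23 ± 0.09), NAT10 (-0.94 ± 0.16) and NOP56 (-0.78 ± 0.11) fell most at D1, and DDX18 (-2.59 ± 0.09), NAT10 (-2.58 ± 0.16) and NCL (-2.47 ± 0.11) at D2. The 2 genes without a call at D2 were WDR43 (0.12, 95% interval -0.10 to 0.34) and NIP7 (-0.17, -0.36 to 0.02). Without each letter in turn 19 of the 25 calls at D1 and 38 of the 40 at D2 were kept. When each library was divided by its total instead, the median of all genes moved to 0.13 at D1 and 0.35 at D2. The 42 genes then split into 5 higher and 14 lower at D1 and 2 higher and 34 lower at D2. On that scale 4917 of all genes were higher and 2326 lower at D1, and 7823 higher and 3093 lower at D2. The median of the 42 genes lay -1.13 from that of all genes at D2. A scale shifts all genes of a library alike, so it cannot alter this distance.

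A week after the start, most had come back part of the way. From D2 to D7 the heavy pool rose in 32 genes, fell in 1 and had no call in 9 (all genes: 28.7% higher and 28.3% lower), with a median of 0.61 against 0.02 over all genes. The largest rises were those of DDX18 (1.78 ± 0.09), NCL (1.67 ± 0.11) and NOP56 (1.36 ± 0.11). HEATR1 alone fell further (-0.38 ± 0.10, adjusted p = 0.00318), a call that was not kept without letter B. Against D0, D7 still had 32 genes lower and 2 higher (all genes: 36.5% lower and 27% higher), with a median of -0.49. NAT10 (-1.74 ± 0.16), HEATR1 (-1.69 ± 0.10) and UTP20 (-1.34 ± 0.17) were lowest, while NOP16 (0.39 ± 0.10) and NHP2 (0.35 ± 0.09) were higher. Without each letter, 28 of the 33 calls between D2 and D7 and 27 of the 34 against D0 were kept. Of the 2 genes higher than D0, NOP16 was kept and NHP2 was not. In letter C, 33 of the 42 genes had their highest value of D7, and 40 of the 42 their highest value of D0. With library totals as the scale, 19 of the 42 genes were lower and 3 higher at D7 (all genes: 3523 lower and 6414 higher).

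After D7 most of these mRNAs fell again in the heavy pool. From D7 to D14 it fell in 26 genes, rose in 3 and had no call in 13 (all genes: 28.9% lower and 29.5% higher), with a median of -0.43. PES1 (-1.19 ± 0.09), RRP1B (-1.10 ± 0.11) and BOP1 (-0.98 ± 0.10) fell most, and NOP58 (0.96 ± 0.17), UTP20 (0.61 ± 0.17) and FBL (0.21 ± 0.09) rose. The call of FBL was not kept without each letter in turn. From D14 to D16, 13 genes fell further and 1 rose (all genes: 10.2% lower and 8.68% higher). NOP2 (-0.80 ± 0.22), BOP1 (-0.75 ± 0.10) and RRP9 (-0.64 ± 0.09) fell most, and HEATR1 rose (0.43 ± 0.10). This step rests on few libraries, since without letter A it held 4 calls, without B 5 and without C 13; NHP2, RRP9, PES1 and BOP1 were called each time. With the letter as a block, the fall of NOL6 (-0.40 ± 0.14) missed the threshold (adjusted p = 0.0517).

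Against D0, the heavy pool at D14 had 39 of the 42 genes lower and 1 higher (all genes: 37.6% lower and 34.4% higher), and at D16 40 lower and none higher (36.6% lower and 36.2% higher). The medians were -0.96 and -1.15. TCOF1 fell most on both days (-2.12 ± 0.12 and -2.28 ± 0.12). It was followed at D14 by NAT10 (-1.76 ± 0.16) and NOC2L (-1.68 ± 0.14) and at D16 by PES1 (-2.15 ± 0.09) and BOP1 (-2.14 ± 0.10). NHP2 was the 1 gene higher at D14 (0.49 ± 0.09). All 40 calls of D14 and 39 of the 40 of D16 were kept without each letter in turn.

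**Figure D2:**
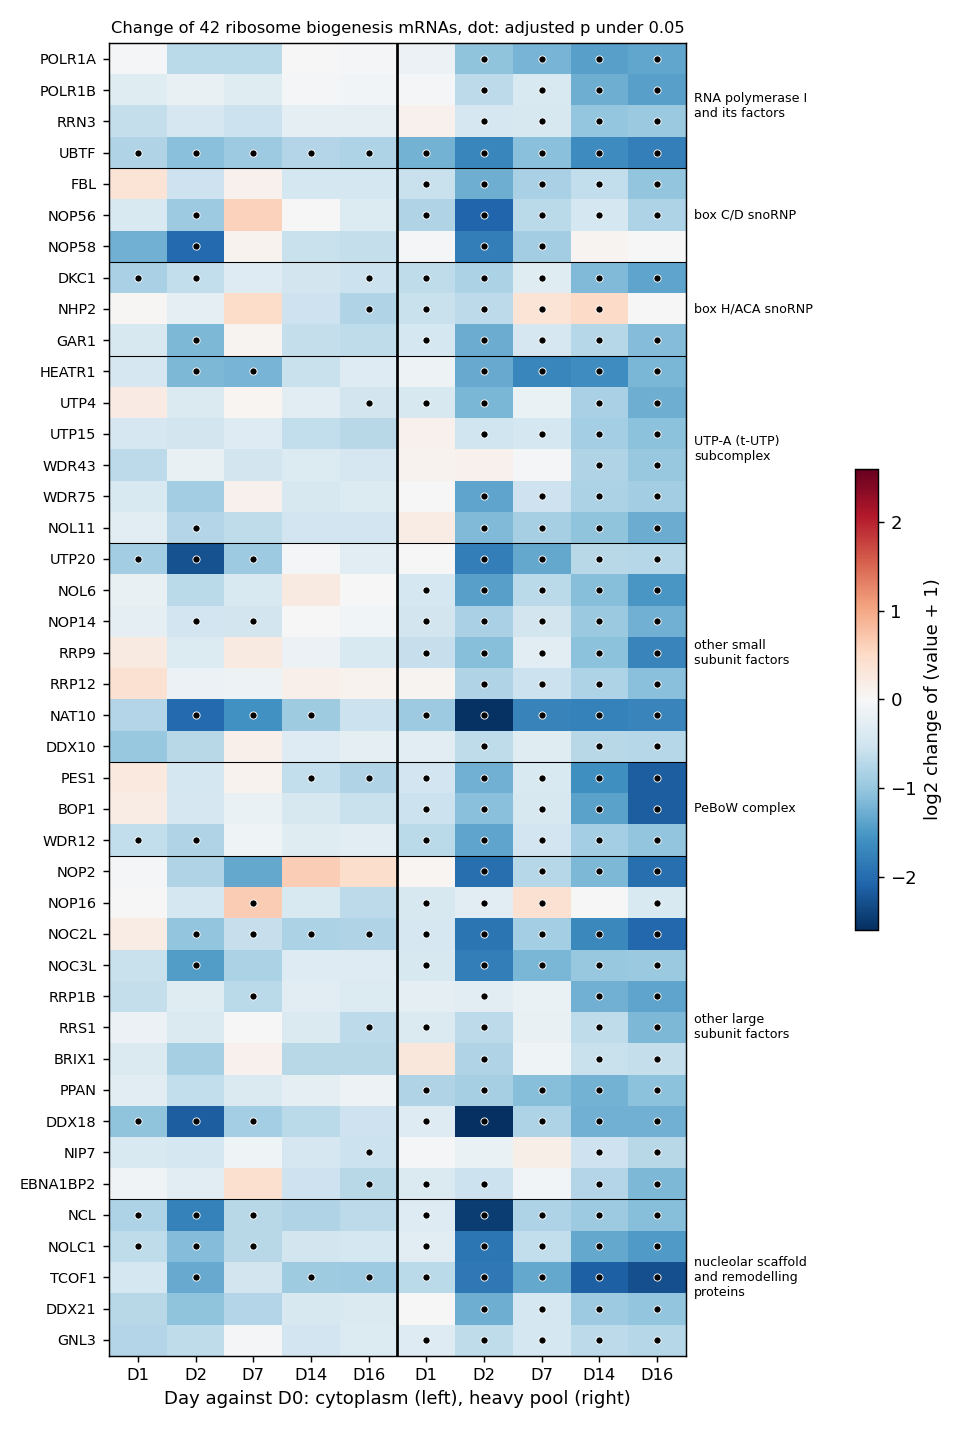
Change against D0 in log2(value + 1) for the 42 genes (rows, grouped by role) on each later day in the cytoplasm (left 5 columns) and the heavy pool (right 5 columns). Dots mark an adjusted p under 0.05. The heavy pool holds dots in 25, 40, 34, 40 and 40 rows from D1 to D16, the cytoplasm in 7, 17, 11, 5 and 10.

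RNA polymerase I and its factors fell in the heavy pool. In the cytoplasm only UBTF was called against D0 (with the letter as a block POLR1A also was, at D2 with adjusted p = 0.035 and at D7 with adjusted p = 0.0279). The cytoplasmic changes of the 4 genes at D2 were all negative, from -1.08 to -0.20. The test of the difference between the heavy-pool and cytoplasmic changes called 0 of the 4 at D1, D2 and D7. It called 4 lower at D14 and 3 lower at D16. All 4 were lower in the heavy pool at D2, D7, D14 and D16. UBTF, which binds the rDNA and keeps it open, read 14071, 13702 and 14092 in the heavy pool at D0, then 6079, 6421 and 5341 at D1 and 4235, 4144 and 4588 at D2. It read 6625, 5940 and 7175 at D7 and 4004, 4209 and 3936 at D16. No later library reached the D0 range, and UBTF was already down by 1.23 on the log2 scale at D1, the largest fall of that day. Its cytoplasmic values went from 8170, 8294 and 9267 at D0 to 4106, 4378 and 3683 at D2 (-1.08 ± 0.19, adjusted p = 0.000333), and it was called lower in the cytoplasm on all 5 days.

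POLR1A and POLR1B encode the large catalytic subunits of the enzyme. POLR1A read 4937, 4293 and 5117 in the heavy pool at D0, 2219, 2116 and 2571 at D2 and 1830, 1668 and 1913 at D14. It read 2356, 1664 and 2278 at D7, and like RRN3 it had no call between D2 and D7 (-0.14 ± 0.16). In the cytoplasm POLR1A at D14 read 2158, 3819 and 2349, with letter B high, against 2375, 2545 and 3228 at D0 (-0.00 ± 0.32, adjusted p = 0.996). POLR1B read 5812, 5640 and 6485 in the heavy pool at D0, 3755, 3512 and 3975 at D2, 4293, 4015 and 5499 at D7 and 2400, 2220 and 2817 at D14 (-1.27 ± 0.12 against D0). Its cytoplasmic libraries stayed between 1599 and 2691 on all days.

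RRN3, the initiation factor that brings the polymerase to the promoter, changed least of the 4 at D2. Its heavy-pool values were 6367, 6198 and 6986 at D0, 5063, 4338 and 4967 at D2 (-0.45 ± 0.10) and 3401, 2945 and 3440 at D14 (adjusted p = 1.71e-08). The D14 libraries lie below all those of D0 and D2. RRN3 has near-identical pseudogene copies in the genome, so its values are uncertain where reads could be split among them.

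The box C/D core proteins, which carry the enzyme that methylates rRNA riboses, fell at D2 and rose to D7; of the 3, only NOP58 had no call against D0 at D14 and D16. All 3 were lower at D2 and D7 in the heavy pool, and all 3 rose between these days. NOP56 read 13409, 13895 and 15126 at D0, 3357, 3213 and 3643 at D2 (24.1% of D0, -2.05 ± 0.11, adjusted p = 4.96e-13), 7683, 8043 and 10689 at D7 and 9983, 10050 and 10842 at D14. The order of the groups is thus D2, D7, D14, D0, with D7 and D14 overlapping. NOP58 read 3142, 3525 and 4330 at D0, 1087, 1185 and 894 at D2 and 1883, 2401 and 1646 at D7. At D14 (3103, 4928 and 3566) and D16 (2943, 3839 and 4246) it overlapped D0, with changes of 0.06 (95% interval -0.29 to 0.41) and 0.00 (-0.35 to 0.35). FBL, the methyltransferase itself, read 24448, 27073 and 26589 at D0 and 10062, 10445 and 11833 at D2 (-1.27 ± 0.09), and 16526, 16460 and 17296 at D14. At D16 FBL read 12380, 12366 and 13719 (-1.02 ± 0.09), not far above its D2 libraries, and NOP56 read 7778, 7823 and 8840 (-0.80 ± 0.11).

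In the cytoplasm NOP58 (2.10 ± 0.64) and NOP56 (1.55 ± 0.23) had the largest rises of the 42 between D2 and D7. NOP56 went from 8927, 5880 and 5734 to 29738, 15031 and 16770, where letter A stands far above the others. NOP58 spread widely between letters, at 4930, 1281 and 5530 at D14, so that letter B alone lay far below its D0 values of 4869, 5957 and 3970. Both genes host small nucleolar RNAs in their introns, 5 annotated within NOP56 and 4 within NOP58. Across the 42 genes, 8 hold such RNAs, and their median heavy-pool change at D2 was -1.01 (range -2.47 to 0.12) against -1.21 over the other 34 (range -2.59 to -0.17), so hosts and other genes overlap.

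Of the core proteins of the box H/ACA particles that guide pseudouridine formation, DKC1 and GAR1 were lower than D0 in the heavy pool on every later day. NHP2 was called lower there only at D1 and D2. DKC1, the pseudouridine synthase dyskerin, read 16181, 18259 and 19298 in the heavy pool at D0, 10401, 9302 and 10675 at D2 and 13324, 12794 and 17052 at D7. It then fell to 8087, 7305 and 8869 at D14 and 6154, 7036 and 7514 at D16 (-1.38 ± 0.11 against D0). GAR1 changed by -1.28 ± 0.13 at D2 and -1.13 ± 0.13 at D16. NHP2 read 7899, 8052 and 8580 at D0, 4899, 5199 and 5242 at D2, 9860, 11669 and 9895 at D7 and 11048, 11709 and 11716 at D14. The D7 and D14 libraries all lie above those of D0. At D16 NHP2 overlapped D0 (8831, 7455 and 8435; 0.01, 95% interval -0.17 to 0.19), a fall from D14 of 0.48 on the log2 scale. In the cytoplasm NHP2 took another course, from 21725, 18856 and 23170 at D7 to 9153, 12563 and 10047 at D14 (-1.01 ± 0.22) and 8564, 9449 and 8543 at D16 (-0.79 ± 0.22 against D0). A gene on the opposite strand, RMND5B, overlaps NHP2, and the strand setting of the counting is not given in the sources used here.

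**Figure D3:**
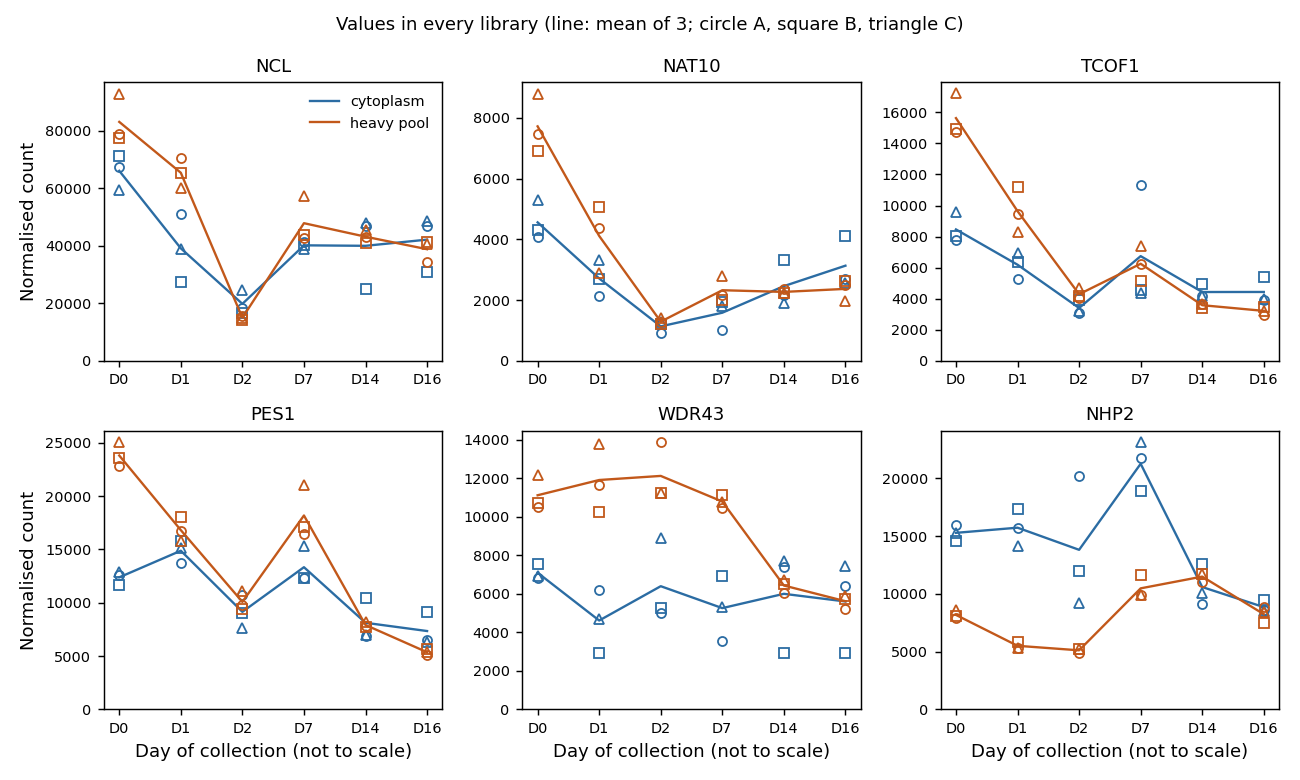
Normalised counts (y axis) by day (x axis, not to scale) for NCL, NAT10, TCOF1, PES1, WDR43 and NHP2 in every library of the cytoplasm (blue) and the heavy pool (orange); lines are means of 3. The heavy-pool values of NCL, NAT10, TCOF1 and PES1 drop to D2, WDR43 stays level to D7 and drops at D14, and NHP2 is above D0 at D7 and D14.

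The UTP-A proteins bind the nascent rRNA precursor first and are also called t-UTPs, for their tie to transcription. In the heavy pool 5 of the 6 fell at D2, and all 6 were lower at D14 and at D16. HEATR1, the largest of them, read 3650, 3569 and 4453 at D0, 1494, 1554 and 1643 at D2 and 1228, 1054 and 1332 at D7. It stayed at 1280, 1239 and 1258 at D14 and then read 1609, 1904 and 1607 at D16, so that D7 and D14 are its low points and D16 lies above both. In the cytoplasm HEATR1 was lower at D2 (-1.16 ± 0.23) and D7 (-1.21 ± 0.23). WDR75 had the largest D2 fall of the group (-1.37 ± 0.12), from 4087, 4063 and 4963 to 1666, 1635 and 1754.

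WDR43 had no call in the heavy pool at D1, D2 or D7. It read 10479, 10699 and 12164 at D0, 13898, 11231 and 11222 at D2 and 10471, 11112 and 10778 at D7. D0 overlaps both later groups, while the D7 libraries lie just below those of D2 (-0.16 ± 0.10, not called). It then dropped to 6065, 6514 and 6712 at D14 (-0.79 ± 0.10, adjusted p = 5.61e-07) and 5213, 5741 and 5892 at D16. UTP4 was at -1.18 ± 0.11 at D2 and rose by 1.00 ± 0.11 to D7, where it had no call against D0 (-0.18 ± 0.11). It overlaps SNTB2 on the same strand and CHTF8 on the opposite strand, so reads may be shared. UTP15 had the smallest called change of the group at D2 (-0.52 ± 0.12), and NOL11 was at -1.14 ± 0.10.

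The other small subunit factors fell as a block at D2, 7 of 7, and all 7 were again lower at D14 and D16. NAT10, the acetyltransferase of small subunit rRNA, read 7462, 6920 and 8776 at D0, 1264, 1200 and 1400 at D2 (16.8% of D0, adjusted p = 2.78e-12) and 2172, 1998 and 2798 at D7. It stayed near there at D14 (2367, 2218 and 2216) and D16 (2498, 2636 and 1966), far from the D0 libraries. In the cytoplasm it went from 4063, 4314 and 5295 to 918, 1207 and 1272 at D2 (-2.01 ± 0.28) and was at 2704, 4115 and 2572 at D16, where letter B reached the D0 range. UTP20, a large scaffold of the processome, was the gene with the largest cytoplasmic fall at D2, from 622, 657 and 628 to 101, 144 and 155 (-2.27 ± 0.23, adjusted p = 1.19e-06). It was back at 603, 500 and 751 in the cytoplasm at D14, while its heavy pool, 582, 520 and 731 at D0, read 168, 192 and 165 at D2 and 271, 429 and 415 at D14. RRP9, a protein particular to the snoRNP that base-pairs with the precursor, was at -1.10 ± 0.09 at D2, -0.27 ± 0.09 at D7 and -1.71 ± 0.09 at D16; its D7 change turned to 0.024 with library totals as the scale. NOL6 (-1.42 ± 0.14), NOP14 (-0.83 ± 0.11), RRP12 (-0.78 ± 0.17) and the helicase DDX10 (-0.67 ± 0.16) filled the rest of the D2 range.

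The PeBoW proteins PES1, BOP1 and WDR12 act as a trimer in the maturation of large subunit rRNA. All 3 were called lower in the heavy pool on each of the 5 days against D0, and all 3 rose from D2 to D7 and fell from D7 to D14. PES1 read 22793, 23529 and 25104 at D0, 9748, 9372 and 11136 at D2 and 16490, 17065 and 21005 at D7. It then read 7803, 7775 and 8179 at D14 and 5069, 5651 and 5374 at D16, the lowest of all its heavy-pool groups. BOP1 followed the same order, with 28298, 27713 and 31317 at D0, 12485, 13674 and 14809 at D2, 20585, 20575 and 24429 at D7 and 7215, 6998 and 5656 at D16. WDR12 read 5280, 4960 and 5503 at D0, 2096, 1902 and 2055 at D2 (-1.38 ± 0.10) and 2432, 2544 and 2718 at D16 (-1.03 ± 0.10), so its late level lies above that of D2. The late fall was smaller in the cytoplasm, where PES1 read 12632, 11627 and 12902 at D0 and 6531, 9170 and 6354 at D16 (-0.77 ± 0.20, adjusted p = 0.0129).

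Of the 11 other large subunit factors, 10 fell in the heavy pool at D2 and all 11 were lower at D16. DDX18, an RNA helicase, had the largest D2 fall of the 42 genes, from 6248, 5991 and 7069 to 1152, 1064 and 992 (16.6% of D0, adjusted p = 2.87e-16). It recovered in part to 3335, 3695 and 4021 at D7 and read 2626, 2789 and 2662 at D14. Its cytoplasmic values fell as well, from 3220, 4012 and 3821 to 605, 731 and 1280 at D2 (-2.15 ± 0.33). NOC2L and NOC3L, which pair with each other and with further factors on precursors of the large subunit, were at -1.89 ± 0.14 and -1.79 ± 0.12 at D2. At D16 NOC2L was at -2.04 ± 0.14 and NOC3L at -0.97 ± 0.12. NOP2 read 217, 252 and 267 at D0, 57, 63 and 66 at D2 and 77, 59 and 53 at D16, with 135, 127 and 179 between them at D7.

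Some of this group moved little at first. RRP1B read 9364, 8678 and 9945 at D0 and 8350, 7214 and 7738 at D2 (-0.26 ± 0.11, adjusted p = 0.0344), then 4213, 3368 and 4151 at D14. NIP7 read 6269, 6743 and 6960 at D0, 6395, 5381 and 6006 at D2 and 3837, 3940 and 4413 at D16 (-0.71 ± 0.09). NOP16 was lower at D2 (-0.28 ± 0.10), higher at D7 (0.39 ± 0.10) and uncalled at D14 (-0.01, 95% interval -0.21 to 0.20). With library totals as the scale, the D2 changes of RRP1B (0.12), NIP7 (0.21) and NOP16 (0.10) and the NOP16 changes at D14 (0.31) and D16 (0.026) were positive. EBNA1BP2 (-0.56 ± 0.11), RRS1 (-0.68 ± 0.10), BRIX1 (-0.77 ± 0.13) and PPAN (-0.87 ± 0.17) made up the rest at D2. PPAN overlaps P2RY11 on the same strand, and NOP16 overlaps ARL10 and HIGD2A on the opposite strand, so reads may be shared. Genes on the opposite strand also overlap RRN3, HEATR1, UTP15, NOP14, PES1, NOC2L, BRIX1, NIP7, EBNA1BP2 and GNL3.

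The nucleolar scaffold and remodelling proteins held some of the largest changes, and 5 of 5 fell in the heavy pool at D2. NCL (nucleolin), the most abundant of the 42 mRNAs by normalised count, read 78871, 77298 and 92810 at D0, 15639, 14225 and 14936 at D2 (18.0% of D0, adjusted p = 1.11e-14) and 42591, 43575 and 57228 at D7. It read 43153, 40898 and 45267 at D14, overlapping D7. In the cytoplasm NCL went from 67340, 71269 and 59357 to 18167, 16469 and 24668 at D2 (-1.76 ± 0.27) and was at 46888, 25094 and 47826 at D14, with letter B low; that change (-0.78 ± 0.27) was called with the letter as a block (adjusted p = 0.0195) and not without it. NOLC1, a chaperone of snoRNPs, read 32456, 33106 and 39070 at D0, 9428, 9153 and 9758 at D2 and 20081, 19850 and 28254 at D7. It was at 14094, 12596 and 15063 at D14 (-1.32 ± 0.11), between D2 and D7.

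TCOF1 (treacle), which joins RNA polymerase I to rRNA processing, had the deepest late fall. Its heavy-pool values were 14729, 14934 and 17221 at D0, 4023, 4175 and 4656 at D2, 6211, 5118 and 7416 at D7, 3678, 3426 and 3630 at D14 and 2961, 3486 and 3190 at D16. The D14 and D16 libraries lie below all those of D2. In the cytoplasm TCOF1 read 7775, 8009 and 9589 at D0, 3083, 3897 and 3214 at D2 and 3933, 5396 and 3963 at D16 (-0.94 ± 0.28, adjusted p = 0.026); at D7 letter A read 11320 beside 4527 and 4368. GNL3 (nucleostemin), a nucleolar GTPase, had the smallest D2 fall of the group, from 10652, 10892 and 12138 at D0 to 7490, 6955 and 6821 at D2 (-0.66 ± 0.10). The helicase DDX21 was at -1.28 ± 0.10 at D2 and -0.94 ± 0.10 at D14.

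The cytoplasm gave fewer calls than the heavy pool on every day. At D1 7 were lower and none higher (all genes: 7.09% lower and 10.9% higher), led by DDX18 (-1.05 ± 0.33), UTP20 (-0.91 ± 0.23) and DKC1 (-0.85 ± 0.16). At D2 17 were lower and none higher (10.6% lower and 14.2% higher), led by UTP20, DDX18 and NOP58 (-2.02 ± 0.64), and all 42 changes were negative (median -0.70, against -0.00 over all genes). At D7 10 were lower and 1, NOP16 (0.65 ± 0.24), was higher (15.7% lower and 18.3% higher), with NAT10 (-1.57 ± 0.28), HEATR1 and UBTF (-0.95 ± 0.19) lowest. At D14 5 were lower and none higher (5.05% lower and 7.75% higher), and at D16 10 were lower and none higher (7.26% lower and 9.47% higher). TCOF1 (-0.93 ± 0.28), NAT10 (-0.92 ± 0.28) and NOC2L (-0.83 ± 0.21) led at D14, and TCOF1, UBTF (-0.79 ± 0.19) and NHP2 at D16. The medians of the 42 genes were -0.40 at D1, -0.34 at D7, -0.42 at D14 and -0.45 at D16.

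Between later days, 13 of the 42 rose in the cytoplasm from D2 to D7 and none fell (all genes: 9.48% higher and 11.8% lower), led by NOP58, NOP56 and UTP20 (1.32 ± 0.23). From D7 to D14, 4 rose and 4 fell (16.5% higher and 19.1% lower). NOP2 (1.98 ± 0.59), UTP20 (0.88 ± 0.23) and HEATR1 (0.64 ± 0.23) rose most, and NOP16 (-1.04 ± 0.24), NHP2 and EBNA1BP2 (-0.97 ± 0.20) fell most. From D14 to D16 limma called 0 of the 42 (0% of all genes higher and 0% lower). An unadjusted p under 0.05 was found for 0 of the 42 and 230 of all genes (1.45%). With library weights limma called 3 of the 42 (1 higher and 2 lower), beside 448 of all genes higher and 475 lower. The NOP2 values are low and scattered here, at 76, 41 and 13 at D7 and 85, 242 and 130 at D14.

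Cytoplasmic libraries of a group spread more widely than those of the heavy pool, and the counts above move with them. At D14 and D16 letter B read lowest in 23 and 20 of the 42 genes and highest in 18 and 17. Without each letter in turn, 7 of the 17 calls of D2 were kept (UBTF, HEATR1, UTP20, NAT10, DDX18, NCL and NOLC1), 2 of the 11 of D7 (HEATR1 and NAT10), and 0 of those of D1, D14 and D16. The counts without a letter ran from 0 to 2 at D1, 8 to 15 at D2, 2 to 7 at D7, 0 to 4 at D14 and 0 to 3 at D16; from D2 to D7 they ran from 1 to 8 and from D7 to D14 from 1 to 10. Leaving out only D7 A, which had 22.8% ribosomal protein reads, gave 7 calls at D7 and 7 from D2 to D7. Leaving out only D2 C, the deepest library, gave 8 from D2 to D7, and leaving out only D16 B gave 6 at D16. With the letter as a block, 11 genes were called at D1, 10 at D14 and 15 from D7 to D14. Beside those given above for POLR1A and NCL at D14, the calls against D0 that the block added (adjusted p in parentheses) were lower except where stated. At D1 they were NAT10 (0.0174), GNL3 (0.0304), DDX10 (0.0344) and RRP1B (0.0161). At D2 they were FBL (0.0395), GNL3 (0.0446), WDR75 (0.0433), NOL6 (0.0201), BRIX1 (0.0457), NIP7 (0.0405) and DDX21 (0.0275). At D7 they were NOL11 (0.0363) and, as higher, NOP56 (0.0216) and EBNA1BP2 (0.0487). At D14 they were HEATR1 (0.0452), DKC1 (0.0431), GAR1 (0.0288) and EBNA1BP2 (0.0277), and at D16 NCL (0.0334), BOP1 (0.0498), GAR1 (0.0184) and NOP16 (0.0163). With library totals as the scale, D7 to D14 split into 10 higher and 3 lower (all genes: 4576 higher and 1426 lower).

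The next comparison asked whether the heavy pool changed more than the cytoplasm, as the difference of the 2 changes. The 2 fractions of the same letter and day were fitted as independent libraries, so any pairing between them was not used. At D1, D2 and D7 few genes differed. Lower were 4 at D1 (all genes: 3.37% lower and 0.787% higher), 3 at D2 (2.03% lower and 0.0378% higher) and 2 at D7 (3.2% lower and 0.749% higher), and none was higher. FBL (-0.94 ± 0.24), RRP9 (-0.84 ± 0.23) and PES1 (-0.77 ± 0.22) led at D1, NOP56 (-1.10 ± 0.26), UTP4 (-0.81 ± 0.18) and PES1 (-0.79 ± 0.22) at D2, and NOP56 (-1.29 ± 0.26) and FBL (-0.97 ± 0.24) at D7. Leaving out a letter gave 0 calls at D1 and at D2 and 0 to 1 at D7. With the letter as a block 5 were called at D2, UTP20 was higher at D1 (0.90, adjusted p = 0.0442), without D2 C 8, and without D7 A 1 at D7. With library totals as the scale the calls were 0 at D1, 1 higher and 1 lower at D2, and 2 higher and 1 lower at D7. Over all genes they were 22 higher and 22 lower at D1, 102 and 30 at D2, and 1403 and 186 at D7.

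More genes differed at D14 and D16. At D14 the difference of the changes was negative for 19 of the 42 and positive for 1 (all genes: 16.7% lower and 11.5% higher), with a median of -0.61 against -0.10 over all genes. At D16 it was negative for 20 and positive for 1 (17.9% lower and 11.6% higher), with a median of -0.74 against -0.09. NOP2 (-1.80 ± 0.66, adjusted p = 0.039), POLR1A (-1.40 ± 0.37, adjusted p = 0.00711) and NOL6 (-1.34 ± 0.34, adjusted p = 0.00481) were lowest at D14, and NOP2 (-2.41 ± 0.66), BOP1 (-1.57 ± 0.26) and NOL6 (-1.51 ± 0.34) at D16. NHP2 went the other way, by 1.03 ± 0.24 at D14 and 0.80 ± 0.24 at D16. All 4 RNA polymerase I genes and all 3 PeBoW genes were lower at D14, and none of the 3 box C/D genes was called. NOL6 shows the pattern by library, with 1929, 3486 and 2053 in the cytoplasm at D14 against 1798, 1802 and 2588 at D0, and 2072, 1976 and 2111 in the heavy pool against 4491, 3967 and 4840.

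The D14 count depended on the libraries: it was 16 without letter A, 11 without B and 10 without C, and POLR1B, NHP2 and NOL6 were called each time. At D16 it ran from 14 to 22. The letter as a block added NAT10 at D14 (adjusted p = 0.0463) and RRN3 at D16 (adjusted p = 0.0332). At D16, 11 genes were called without each letter (POLR1B, UBTF, UTP4, NOL6, NOP14, RRP9, PES1, BOP1, NOC2L, NOLC1 and TCOF1). With library totals as the scale, 7 were lower and 2 higher at D14 (all genes: 673 lower and 2478 higher). At D16, 11 were lower and 2 higher on that scale (all genes: 959 lower and 2825 higher). The median of the 42 genes lay -0.51 and -0.65 from that of all genes on these days, a distance that a scale cannot alter. Across the 42 genes, the cytoplasmic and heavy-pool changes had a Pearson r of -0.058 at D1, 0.805 at D2, 0.684 at D7, 0.165 at D14 and -0.021 at D16, a description over 42 genes measured in the same libraries.

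**Figure D4:**
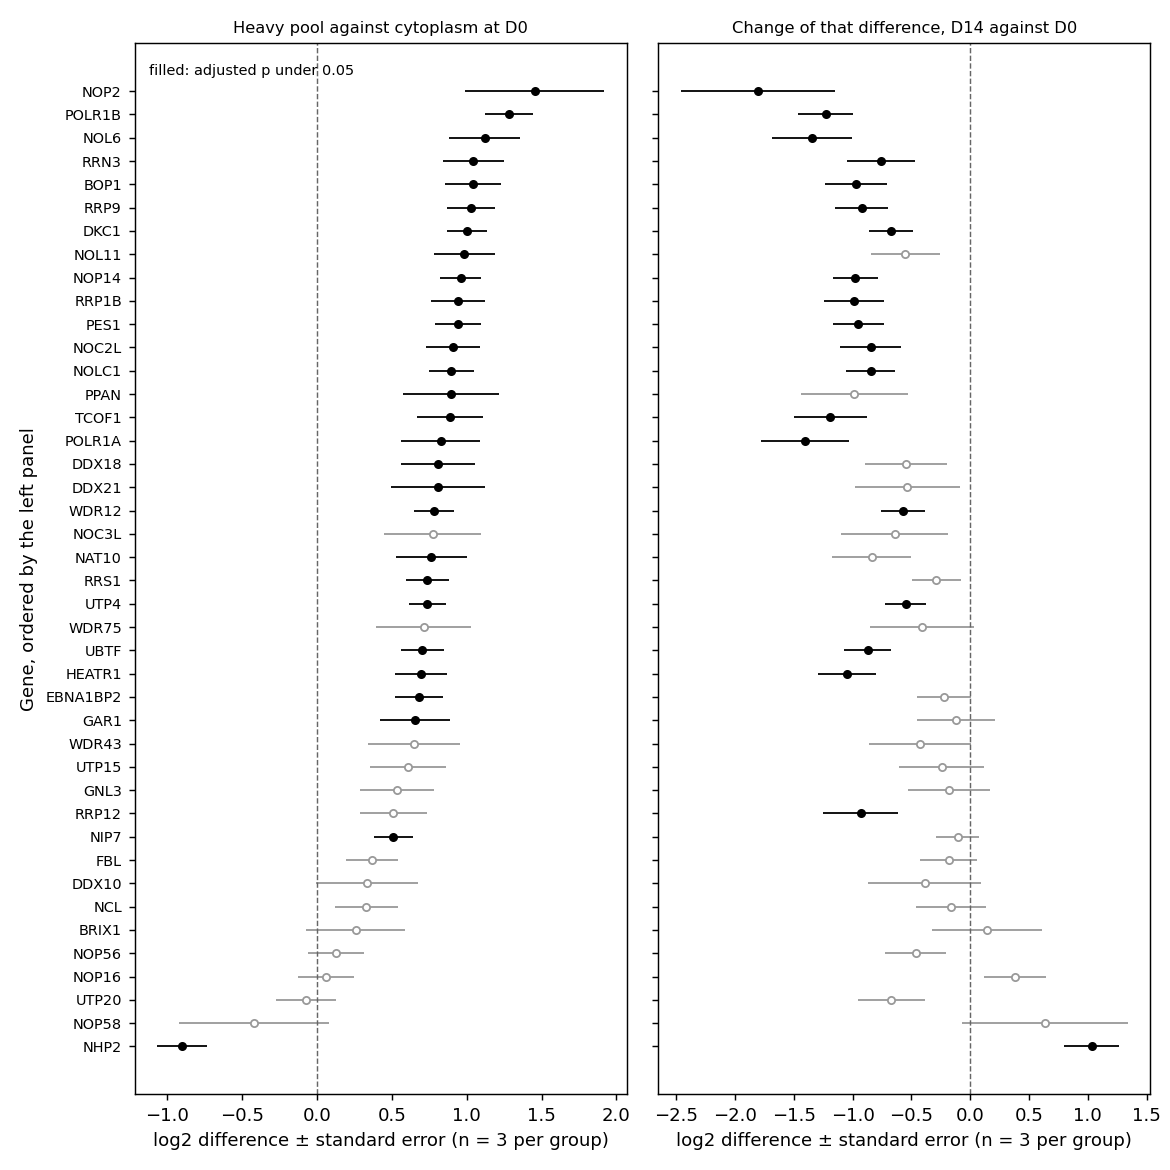
Left, log2 difference of heavy pool and cytoplasm at D0 for each of the 42 genes; right, the change of that difference from D0 to D14. Points are estimates with standard errors (3 libraries per group), filled where the adjusted p is under 0.05. On the left 27 filled points lie above 0 and NHP2 below; on the right 19 lie below 0 and NHP2 above, at 1.03.

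Across all coding genes, those with longer coding sequences had lower values of this difference at D14, and most of the 42 genes are long. The change of the heavy-to-cytoplasm difference from D0 to D14 had a Pearson r of -0.690 with log2 coding length over the 42 genes and of -0.593 over the 12399 protein-coding genes of the table. Of the 42 genes 31 have a coding sequence of at least 1.5 kb, a border chosen after the values were seen. Their median at D14 was -0.759 with 17 lower, against -0.596 over the 5750 genes of that length, of which 33.4% were lower and 1.32% higher. The 11 shorter ones had a median of -0.184 with 2 lower and 1 higher, against 0.137 over 6649 short genes, of which 9.61% were lower and 19.5% higher. NHP2, at 0.459 kb, has the shortest coding sequence of the 42 and the largest positive value. The part of coding length in the D14 and D16 results was not tested. In the heavy pool alone, the 31 long genes had a median change of -1.28 at D2 (30 lower). Over the long genes of the table it was -0.135 (42.1% lower). At D7 these medians were -0.633 (27 lower) and -0.419 (57.3% lower). They were -1.05 (30 lower) and -0.476 (59% lower) at D14 and -1.26 (30 lower) and -0.364 (52.6% lower) at D16. For the 11 shorter genes and the short genes of the table they were -0.774 and 0.0283 at D2 and -0.2 and 0.0663 at D7. At D14 they were -0.66 and 0.157, and at D16 -1.03 and 0.127.

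**Figure D5:**
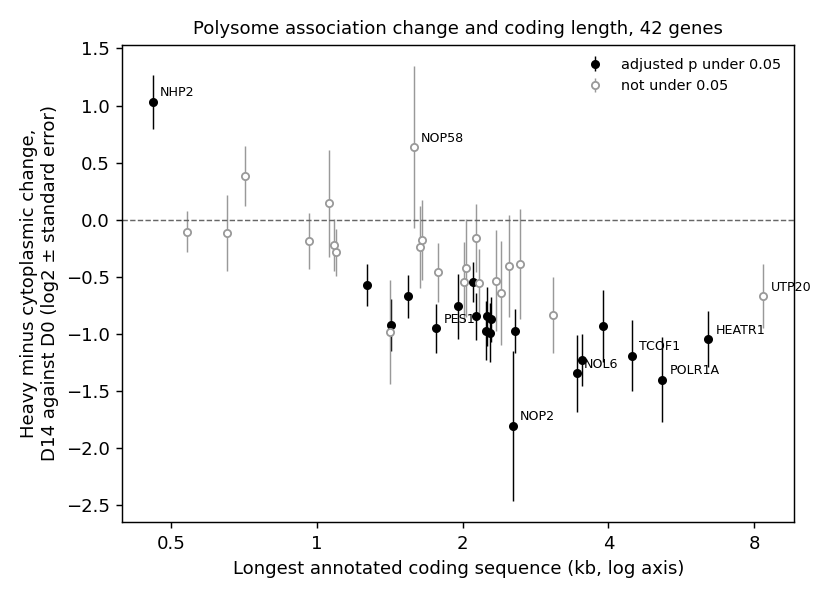
Change of the heavy-to-cytoplasm difference from D0 to D14 (log2 ± standard error, y axis) against the longest annotated coding sequence (kb, log axis) for the 42 genes, filled where the adjusted p is under 0.05. Values tend to go down with length (r = -0.690); NHP2, the shortest at 0.459 kb, is highest at 1.03, while the lowest, NOP2 at -1.80, has 2.535 kb and the longest, UTP20 with 8.355 kb, is at -0.67.

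Other genes of the pathway, in 5 lists of 125 genes with no overlap with the 42, moved mostly the same way in the heavy pool at D2. These lists too were chosen with earlier results of these data known. On that day 34.5% of all genes were lower and 30.4% higher. Of 12 further genes of RNA polymerase I transcription 9 fell and 1 rose (POLR1G, a polymerase subunit, -1.52 ± 0.11; POLR1H 0.39 ± 0.10). Of 10 further snoRNP genes 7 fell and 2 rose, with NUFIP1, an assembly factor, lowest (-1.43 ± 0.11) and NOP10, a small box H/ACA core protein, highest (1.11 ± 0.10). Of 41 further small subunit factors 36 fell and 1 rose (UTP18 -1.77 ± 0.11, IMP3 0.50 ± 0.08), and of 48 large subunit factors 41 fell and 1 rose (ZNF622 -2.35 ± 0.14, SBDS 0.93 ± 0.10). Of 14 genes of the RNA exosome and its cofactors 9 fell and 3 rose (EXOSC8 -2.26 ± 0.11, MPHOSPH6 0.36 ± 0.15). The medians of the 5 lists were -0.74, -0.77, -0.99, -0.84 and -0.43, against -0.03 over all genes.

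From D2 to D7 the same lists held 8, 8, 32, 35 and 6 genes that rose and 2, 0, 1, 0 and 0 that fell (all genes: 28.7% higher and 28.3% lower), with ZNF622 (2.01 ± 0.14) highest of the large subunit list and WDR46 (1.48 ± 0.12) of the small subunit list. At D14 against D0 they held 8, 5, 33, 38 and 9 lower and 2, 4, 2, 0 and 3 higher (all genes: 37.6% lower and 34.4% higher), so the snoRNP list, with 5 and 4 of 10, is near the share over all genes. URB2 (-2.11 ± 0.14) was lowest of the large subunit list and DHX37 (-1.85 ± 0.12) of the small subunit list, and TAF1D (2.09 ± 0.14) was highest of the RNA polymerase I list. NOP10, which sits with NHP2 in box H/ACA particles, had a lower heavy-pool than cytoplasmic value at D0 (-1.36 ± 0.23) and a positive change of that difference at D14 (1.43 ± 0.32, adjusted p = 0.00246).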

How the data were processed

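Cytoplasmic RNA and RNA of fractions with more than 3 ribosomes were sequenced from HCT116 cells. The deposited values are a signal per gene, made by the authors by dividing gene read counts by a size factor per library. FastQC 0.11.9, cutadapt 3.2, STAR 2.7.9a, featureCounts (Subread 2.0.1), DESeq2 1.30.1 and build GRCh38 are named per the submitters' processing notes; the strand setting is not given in the sources used here. The table had 54 columns, of which 36 matched the samples and 18 of no sample were not used. It lists genes present in every library (lowest value 1.004). Of its 15891 genes 15856 had a symbol and 15799 were found in GENCODE 29.

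The test was limma 3.58.1 (R 4.3.3) on log2(value + 1), two-sided, with the trend option and Benjamini-Hochberg adjustment over all genes that reached 10 in at least 3 libraries: 15889 of the cytoplasm, 15852 of the heavy pool and 15891 when both were fitted. Each fraction was fitted alone, and both together for the heavy-to-cytoplasm difference and its change. The joint fit treated the cytoplasmic and heavy-pool libraries of the same letter and day as independent. The letter as a block does not pair them within a day, so the part of such pairing was not tested. The limma test was tried on simulated data, with a single typical spread for all genes of a fraction, unlinked letters and few changed genes. There, 49 of 50 genes with a 2-fold change were recovered for the heavy pool at D2, and 12 of 50 for the cytoplasm. The false calls were 14 and 1. The real data differ from these settings. The letters are a batch in the labels; deviations of same-letter libraries had a mean correlation of 0.19 in the cytoplasm (over 0.1 in 27 of 45 pairs) and 0.068 in the heavy pool (20 of 45). The alternatives were another pseudocount (8), other filters, scaling by totals or by trimmed means, library weights, only the groups compared, the letter as a block, and leaving out letters or single libraries.

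Named genes were, by rule, the 42 members by role, in each comparison the 3 largest rises and falls among those called, and a set always given (NCL, FBL, DKC1, NOP56, UTP20, HEATR1, POLR1A, POLR1B, RRN3, UBTF, PES1, BOP1, WDR12, NAT10, GNL3, TCOF1 and NOLC1). The members and lists were chosen with earlier results of these data known.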

Additional observations from a re-analysis of the deposited data

Results flagged for a closer look

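The change from D0 in the heavy pool differed from the change in the cytoplasm, by limma's test of the difference itself (adjusted p under 0.05), for 50 pairs of gene and day. Values are the heavy-pool change minus the cytoplasmic change in log2(value + 1), from 3 libraries per group.

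At D1 the difference was negative for FBL (-0.94), UTP4 (-0.63), RRP9 (-0.84) and PES1 (-0.77). At D2 the same sign was found for NOP56 (-1.10), UTP4 (-0.81) and PES1 (-0.79), and at D7 for FBL (-0.97) and NOP56 (-1.29). None of these 9 calls was kept without each letter in turn.

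At D14 the genes of RNA polymerase I with a negative value were POLR1A (-1.40), POLR1B (-1.23), RRN3 (-0.76) and UBTF (-0.87). Of box H/ACA and UTP-A they were DKC1 (-0.67), HEATR1 (-1.05) and UTP4 (-0.55). Of the other small subunit factors they were NOL6 (-1.34), NOP14 (-0.98), RRP9 (-0.92) and RRP12 (-0.93). Of the PeBoW complex they were PES1 (-0.95), BOP1 (-0.97) and WDR12 (-0.57). Of the large subunit they were NOP2 (-1.80), NOC2L (-0.84) and RRP1B (-0.99). Of the nucleolar scaffold they were NOLC1 (-0.85) and TCOF1 (-1.19). NHP2 alone was positive at D14 (1.03). Of these, POLR1B, NHP2 and NOL6 were called without each letter in turn.

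At D16 the genes of RNA polymerase I with a negative value were POLR1A (-1.30), POLR1B (-1.35) and UBTF (-0.99). Of box H/ACA and UTP-A they were DKC1 (-0.82), HEATR1 (-0.85), UTP4 (-0.80) and NOL11 (-0.80). Of the other small subunit factors they were NOL6 (-1.51), NOP14 (-1.17), RRP9 (-1.32), RRP12 (-1.18) and NAT10 (-1.14). Of the PeBoW complex they were PES1 (-1.38), BOP1 (-1.57) and WDR12 (-0.75). Of the large subunit they were NOP2 (-2.41), NOC2L (-1.26) and RRP1B (-1.02). Of the nucleolar scaffold they were NOLC1 (-1.02) and TCOF1 (-1.34). NHP2 alone was positive at D16 (0.80).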

How the results depend on the processing

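Without filter, 924 of 924 values of a gene in a comparison kept their call; with pseudocount 8 it was 922, with a filter at 100 it was 917 and with trimmed-mean (TMM) scaling 911. The edgeR test planned on recovered reads was not run. Counts of called genes follow, with the reported count in parentheses, where they changed by more than a set ratio or to or from 0. Smaller changes are left out of that list. Among them, heavy pool against cytoplasm at D0 (28) had 39 calls with only the groups compared. It had 37 with library weights and 32 with the letter as a block. In the cytoplasm, D16 (10) had 14 with only the groups compared and D2 (17) had 25 with the letter as a block. TMM gave 2 (4) for the fraction difference at D1. Library weights gave, in the cytoplasm, 25 (7) at D1, 33 (17) at D2, 27 (11) at D7, 20 (5) at D14, 28 (10) at D16, 31 (13) from D2 to D7, 28 (8) from D7 to D14 and 3 (0) from D14 to D16, and for the fraction difference 23 (4) at D1, 1 (3) at D2, 16 (2) at D7, 37 (20) at D14 and 38 (21) at D16. The weights also moved the counts over all genes. In the cytoplasm these were 3692 higher and 3793 lower at D1, and 4735 and 4842 at D2. They were 4983 and 5009 at D7, 3715 and 3549 at D14, and 4228 and 4199 at D16. For the fraction difference they were 3523 higher and 5257 lower at D14, and 3483 and 4920 at D16. Fitting only the groups compared gave 18 at D1, 17 at D7, 6 from D2 to D7 and 3 from D7 to D14 in the cytoplasm. It gave 12 for the fraction difference at D1. The replicate block (the letter) gave 11 at D1, 10 at D14 and 15 from D7 to D14 in the cytoplasm and 5 for the fraction difference at D2; over all 924 values it added 51 calls and lost 1. Total-sum scaling gave 1 at D14, 4 at D16, 5 from D2 to D7 and 13 from D7 to D14 in the cytoplasm. It also gave 22 (34) in the heavy pool at D7, and 0 at D1, 9 at D14 and 13 at D16 for the fraction difference. Over all genes in the cytoplasm, this scaling gave 1261 higher and 366 lower at D14 and 1555 and 581 at D16. It reversed NOP16 (0.10), RRP1B (0.12) and NIP7 (0.21) at D2, RRP9 (0.024) at D7 and NOP16 at D14 (0.31) and D16 (0.026), all in the heavy pool; with this scaling the median change of all genes there was 0.35 at D2, 0.18 at D7, 0.30 at D14 and 0.44 at D16, against -0.03, -0.11, -0.02 and 0.02 as reported. Without cytoplasmic D16 B, D16 had 6. Without cytoplasmic D2 C, D2 to D7 had 8 and the fraction difference at D2 8. Without cytoplasmic D7 A, D7 had 7, D2 to D7 had 7 and the fraction difference at D7 1. Apart from this move of the median, the cause was not tested.

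Leaving out each letter gave, in the cytoplasm, 0 to 2 at D1, 8 to 15 at D2, 2 to 7 at D7, 0 to 4 at D14, 0 to 3 at D16, 1 to 8 from D2 to D7, 1 to 10 from D7 to D14 and 0 from D14 to D16. In the heavy pool it gave 21 to 22 at D1, 38 to 39 at D2, 29 to 36 at D7, 40 at D14, 39 to 40 at D16, 29 to 32 from D2 to D7, 25 to 29 from D7 to D14 and 4 to 13 from D14 to D16. Between fractions it gave 22 to 31 at D0, and for the change of that difference 0 at D1 and D2, 0 to 1 at D7, 10 to 16 at D14 and 14 to 22 at D16. In the simulated data, 0 of 50 genes with a 1.5-fold change were recovered in the cytoplasm at D2, against 31 of 50 in the heavy pool. Their settings differ from the real data in spread, links between letters and number of changed genes, so real recovery may differ.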
